A study of Solanum chacoense with 24 samples.

Results

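Leaf expression of EE501F2_516, a beetle-resistant F2 individual of the wild potato relative Solanum chacoense, was set against that of both parents of its cross. The comparison used 9 of the 24 libraries of the series, 3 each from EE501F2_516, USDA8380-1 (80-1) and M6, chosen by their line labels. Each gene model was placed by whether the F2 line was called different from 80-1, from M6, from both or from neither, and 21028 of the 37740 models in the table passed the filter on low counts and were tested. The parent 80-1 resists the Colorado potato beetle (Leptinotarsa decemlineata), M6 is inbred and susceptible, and EE501F2_516 came from the resistant extreme of their F2 population in a field trial. No plant carried a treatment: all were raised from in vitro culture in 1 growth chamber regime at 20 °C with a 16 h day, and RNA was taken from leaflets 16 weeks after transplanting. The 3 plants of a line were propagated from 1 individual, so each line stands for 1 genotype. The p-values measure only the spread between plants within a line, estimated together over all 8 lines of the series.

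The Colorado potato beetle is a leaf-feeding pest of potato, and wild Solanum species are used as sources of resistance to it. An F2 individual inherits a mosaic of its grandparents' chromosomes, so at a locus where they differ it may carry 2 alleles from one side or 1 from each. Expression in a segregating progeny may therefore follow one parent, lie between them, or fall outside the parental range, which is called transgressive expression. M6 is described as inbred in the study's design, and 80-1 is not.

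The table gave gene model identifiers that the files do not pair with names or functions, so no pathway or tissue marker list could be counted, the leaf label could not be checked against markers, and models are described by position, level and behaviour. Over the 9 libraries, total counts were between 25546681 and 37687602. At least 1 CPM (1 count per 1000000 of the scaled library total) was reached by 16760 to 17360 models in each. The 10 most counted models took 7.37% to 9.42% of counts in EE501F2_516, 11.1% to 11.4% in 80-1 and 7.56% to 8.43% in M6. Plants of a line differed by a median SD of 0.235 in log2 CPM in EE501F2_516, 0.170 in 80-1 and 0.215 in M6.

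EE501F2_516 differed from each parent at about as many models as not, and at more models than the parents differed from each other. Against 80-1, edgeR's quasi-likelihood test called 11529 models (54.8%) at an adjusted p under 0.05, of which 5750 (27.3%) were higher and 5779 (27.5%) lower in the F2 line. Against M6 it called 10233 models (48.7%), 4999 (23.8%) higher and 5234 (24.9%) lower. The parents differed at 7851 models (37.3%), with 3922 (18.7%) higher and 3929 (18.7%) lower in 80-1. A difference of at least 2-fold was reached by 7204 of the calls against 80-1 (34.3%), by 6262 of those against M6 (29.8%) and by 4662 of those between the parents (22.2%). The F2 line enters both of the first comparisons and each parent enters 2 of the 3, so their counts are not independent.

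The even split between higher and lower calls rests on the scaling. TMM scales libraries as if most models were unchanged between them. Against 80-1, 54.8% of models were called, and whether most were unchanged was not tested apart from the scaling. The TMM factors were 1.17, 1.22 and 1.2 in the plants of EE501F2_516, 0.840, 0.872 and 0.856 in 80-1, and 1.11, 1.03 and 1.06 in M6. The median log2 fold change over all models was 0.03 against 80-1 and 0.01 against M6. With libraries scaled by their total counts alone, those medians were 0.52 and 0.17. The share of calls that were higher in the F2 line then rose from 49.9% to 73.7% against 80-1 and from 48.9% to 59.4% against M6, and the share higher in 80-1 than in M6 fell from 50% to 26%. In the comparisons with the mid-parent value and with the other F2 lines, given further on, the share of higher calls rose from 52.4% to 71% and from 50.3% to 72.7%. All directions below are relative to the TMM scaling.

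Measured over all models tested, EE501F2_516 lay farther from each parent than the parents lay from each other. The median absolute difference of mean log2 CPM was 0.700 to 80-1 and 0.609 to M6, and it was 0.486 between the parents. The plants of EE501F2_516 lay 0.662, 0.789 and 0.700 from the mean of 80-1, and 0.587, 0.684 and 0.611 from the mean of M6. For the other 5 F2 lines the distance of the line mean was 0.347 to 0.536 to 80-1 and 0.358 to 0.525 to M6. Single plants of those lines reached 0.612 from 80-1, below every plant of EE501F2_516. From M6 they reached 0.675, in a plant of EE501F2_641, which was above 2 of the 3 plants of EE501F2_516. EE501F2_516 was chosen for description because it lies farthest from both parents, so its lead over the other lines is given by that choice and was not tested.

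**Figure D1:**
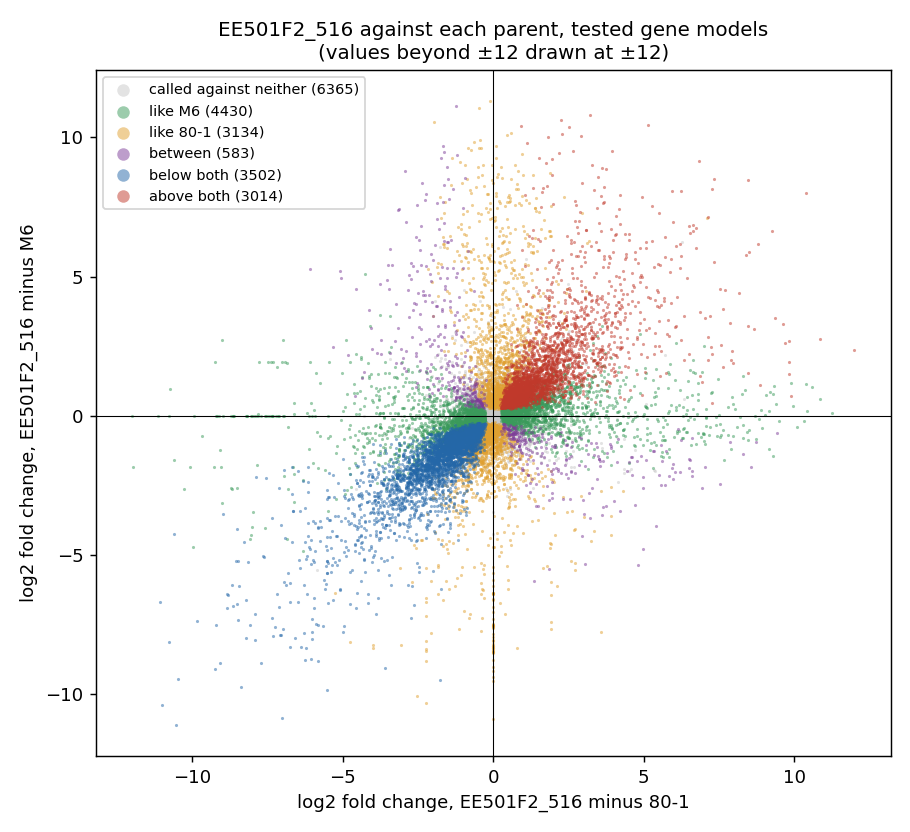
Each point is 1 of the 21028 gene models tested, with its log2 fold change of EE501F2_516 over 80-1 on the horizontal axis and over M6 on the vertical axis, coloured by class. The upper right holds the 3014 models above both parents and the lower left the 3502 below both, while models like one parent lie along an axis.

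The 2 calls together put 3014 models (14.3%) above both parents and 3502 (16.7%) below both. Scaled by total counts alone, 4711 were above both and 2320 below, the opposite order. A further 583 (2.77%) lay between the parents, called higher than one and lower than the other. The class like 80-1, called against M6 alone, held 3134 models (14.9%), and the class like M6, called against 80-1 alone, held 4430 (21.1%). The remaining 6365 (30.3%) were called against neither. A missing call is not shown to be equality, so the like-classes say only which difference passed the test.

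Models outside the parental range were mostly models at which the parents had not been called different, as were 13177 of all 21028 tested. Of the 6516 models (31.0%) above or below both, 4775 (73.3%) had no call between the parents. The class above both held 2205 of these, with 328 models higher in 80-1 than in M6 and 481 higher in M6. The class below both held 2570, with 637 higher in 80-1 and 295 higher in M6. A difference of at least 2-fold from each parent was found at 3669 of the 6516 models.

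The departures were larger downward than upward. The median log2 fold change in the class above both was 1.32 against 80-1 and 1.18 against M6, and in the class below both it was -1.54 and -1.36. At least 2-fold from both parents were 1532 models above and 2137 below. At least 4-fold were 599 above and 811 below, and at least 10-fold were 180 above and 250 below. Every plant of EE501F2_516 stood above every parental plant at 2848 of the 3014 models and below at 3367 of the 3502. Over all models tested, whether called or not, such separation was found at 4107 (19.5%) upward and 4228 (20.1%) downward.

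Among the 7851 models called between the parents, 2799 (35.7%) were in the class like M6, called against 80-1 alone, and 2021 (25.7%) in the class like 80-1, called against M6 alone. The plants of M6 varied more than those of 80-1, and the part of this in the 2 counts was not tested. The F2 line lay between the parents at 583 (7.43%), above both at 809 (10.3%) and below both at 932 (11.9%), and it was called against neither at 707 (9.01%). Where 80-1 was the higher parent, 16.2% of 3922 models were below both and 8.36% above both. Where M6 was the higher parent, 7.51% of 3929 were below both and 12.2% above both.

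**Figure D2:**
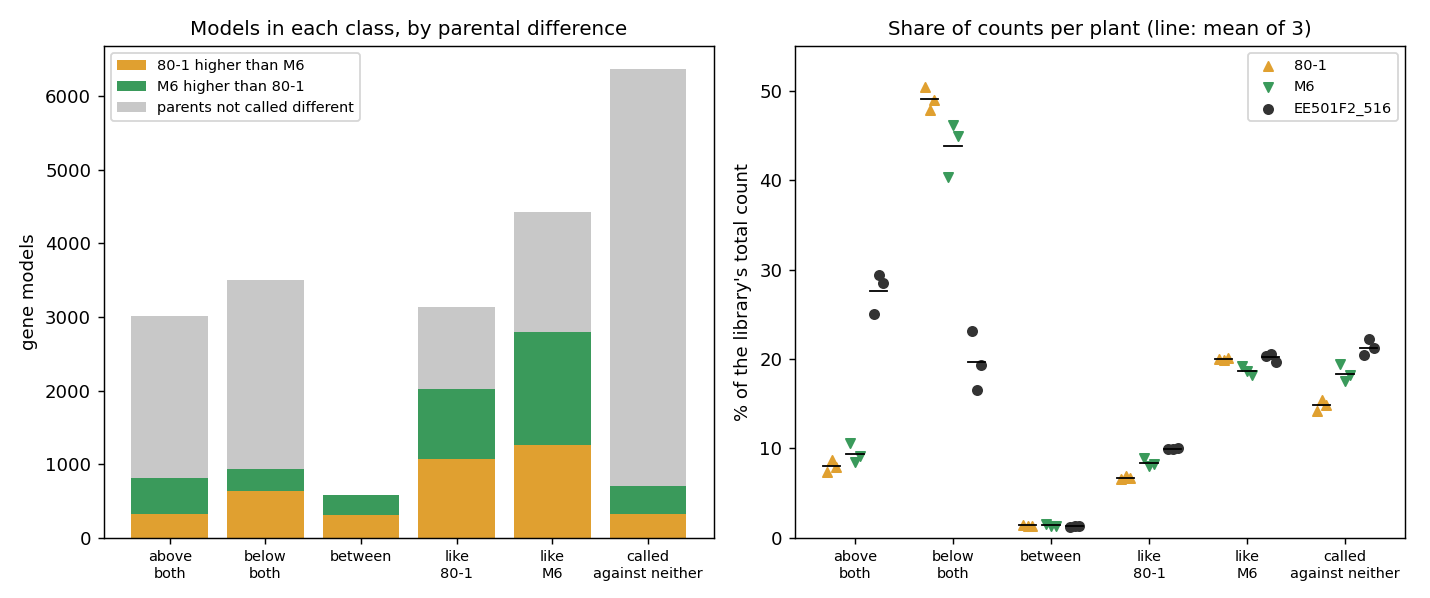
The left panel gives the number of gene models in each class, divided by which parent was called higher. The right panel gives, for each plant of the 3 lines, the percentage of the library's total count that the models of the class take, with a line at the mean of 3 plants; the class above both takes 25% to 29.4% in EE501F2_516 and at most 10.6% in any parental plant.

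The models outside the parental range made up a large part of the leaf's counts. Those above both took 25%, 29.4% and 28.5% of counts in the plants of EE501F2_516, 7.39%, 8.68% and 7.92% in 80-1, and 10.6%, 8.48% and 9.10% in M6. Those below both took 23.1%, 16.5% and 19.3% in EE501F2_516, 50.4%, 47.8% and 49.0% in 80-1, and 40.3%, 46.2% and 44.9% in M6. The means were 27.6 ± 2.32% against 8.00 ± 0.648% and 9.39 ± 1.09% for the class above both, and 19.6 ± 3.31% against 49.1 ± 1.30% and 43.8 ± 3.10% for the class below both (SD, n = 3 each). No plant of the F2 line overlapped a parental plant in either class, which the choice of the classes itself favours, so no test was made.

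Highly counted models were more often below both parents than above. Levels here are means over all 24 libraries, most of which are of other lines. A high level set by other lines favours the class below both, so these shares are descriptions. Of 1638 models with a mean over 100 CPM, 35.2% were below both and 13.8% above. Between 10 and 100 CPM the shares were 18.3% and 17.1% of 9341 models, and between 1 and 10 CPM they were 14.3% and 13.6% of 6645. Under 1 CPM they were 7.67% and 8.25% of 3404, and 40.2% there were called against neither parent.

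Levels were also compared per length, in TPM (counts per kilobase of exon, scaled to the same total in each library). Of the 50 models with the highest mean TPM in the parents, 33 were below both in EE501F2_516, 11 were like M6, 3 like 80-1 and 2 called against neither, and 1 was above both. Their median log2 fold change was -1.71 against 80-1 and -1.03 against M6. These 50 models took 30.9%, 31.0% and 30.9% of TPM in the plants of 80-1, 22.8%, 24.4% and 24.1% in M6, and 20.1%, 16.7% and 21.4% in EE501F2_516. Of the 50 with the highest TPM in EE501F2_516, 14 were above both parents and 12 below, and 27 models stood in both lists of 50. Choosing models for a high level in the parents favours the class below both and choosing them in the F2 line favours the class above, so these counts are descriptions.

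The single most abundant model by TPM, in the parents and in EE501F2_516 alike, was g23593 (chromosome 9, 33323573 to 33324938). It had 18673.7, 23672.4 and 36343.0 CPM in the plants of EE501F2_516, 11071.7, 15566.2 and 12799.2 CPM in 80-1, and 9499.6, 5113.0 and 9153.0 CPM in M6. All plants of the F2 line were above all parental plants, and plant 3 of the line was the highest. The log2 fold change was 1.00 ± 0.33 (SE) against 80-1 (edgeR adjusted p = 0.0162) and 1.73 ± 0.34 against M6 (adjusted p = 0.000336). The call against 80-1 was lost without plant 3 of EE501F2_516 (log2 fold change 0.72, adjusted p = 0.101) and without plant 1 of 80-1 (0.90, adjusted p = 0.0671). EE501F2_089, EE501F2_099 and EE501F2_500 had means of 19425.8, 25489.0 and 21264.6 CPM, also above both parental means. EE501F2_093 and EE501F2_641 had 10383.1 and 8116.7 CPM, between the parental means.

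The model g3389 (chromosome 12, 48079750 to 48083624) ranked 74 by TPM over the parents and 3 in EE501F2_516. Its plants had 7077.6, 13859.9 and 11840.4 CPM in EE501F2_516, 3672.9, 4342.6 and 2714.8 CPM in 80-1, and 2279.9, 1283.4 and 1297.5 CPM in M6. The lines did not overlap, with M6 lowest. The log2 fold change was 1.61 ± 0.30 against 80-1 (adjusted p = 0.000164) and 2.75 ± 0.31 against M6 (adjusted p = 7.77e-07). The other F2 lines had means of 2358.9 to 7024.1 CPM, and all but EE501F2_093 were above both parental means.

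The models ranked 2 and 3 in the parents were both below both in the F2 line. At g30427 (chromosome 2, 17123147 to 17124337) the plants had 5356.1, 2708.9 and 4349.4 CPM in EE501F2_516, 15798.5, 15672.0 and 16278.6 CPM in 80-1, and 7839.6, 10301.5 and 9657.4 CPM in M6. The log2 fold change was -1.94 ± 0.33 against 80-1 (adjusted p = 5.3e-05) and -1.16 ± 0.32 against M6 (adjusted p = 0.00524). At g3840 (chromosome 10, 13928085 to 13928519) they had 2303.8, 967.2 and 1688.4 CPM in EE501F2_516, 7249.7, 5746.0 and 6752.3 CPM in 80-1, and 2783.5, 3462.0 and 3949.1 CPM in M6. For g3840 the log2 fold change was -1.99 ± 0.33 against 80-1 (adjusted p = 4.21e-05) and -1.04 ± 0.32 against M6 (adjusted p = 0.011). In both models every plant of the F2 line was below every parental plant, and plant 2 was the lowest. Without plant 2 the call of g3840 against M6 was lost (log2 fold change -0.76, adjusted p = 0.0691). The other F2 lines had means of 7286.2 to 18530.6 CPM at g30427 and 3075.9 to 7122.8 CPM at g3840. These 4 abundant models were chosen after their values were seen.

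Less abundant models were ranked if they had at least 5 CPM in the highest line and a count in each of the 3 lines. The largest rise over both parents was at g36167 (chromosome 8, 5367074 to 5367502), a short model of 249 exonic bases. The plants of EE501F2_516 had 19.2, 25.6 and 24.6 CPM. Those of M6 had 0.191, 0.0513 and 0.0283 CPM, or 9 counts in all, and 80-1 had 1 count over its 3 libraries. The count ratio of EE501F2_516 to 80-1 was 1684 (95% counting interval 302 to 66555), with an adjusted p of 2.3e-11 in edgeR. Against M6 the log2 fold change was 8.02 ± 0.41 (adjusted p = 4.24e-11), and it was 9.04 without plant 1 of M6. The single count of 80-1 was in plant 3, so 80-1 was at 0 without it. The rise was not found in EE501F2_516 alone: line means of the other F2 lines were 46.3 CPM in EE501F2_089, 18.4 in EE501F2_093, 23.6 in EE501F2_099 and 30.9 in EE501F2_641, and EE501F2_500 had 4 counts.

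The next largest was at novel_gene_67_57a387f8 (chromosome 8, 28275680 to 28276996). It had 54.3, 137 and 96.5 CPM in the plants of EE501F2_516, 0.155, 0.845 and 0.796 CPM in 80-1, and 0.191, 0.462 and 0.113 CPM in M6. The lowest plant of the F2 line was far above the highest parental plant. The log2 fold change was 7.33 ± 0.85 against 80-1 (adjusted p = 8.56e-07) and 8.5 ± 0.9 against M6 (adjusted p = 3.69e-07), and against M6 it was 9.29 without plant 2 of M6. The other F2 lines had means of 0.932 to 27.3 CPM, and EE501F2_516 was above their mean by 3.95 ± 0.39 on the log2 scale (adjusted p = 2.54e-07).

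Leaving aside models with 0 counts in EE501F2_516, given below, the largest fall below both parents was at g37563 (chromosome 11, 9721316 to 9723067). It had 7.92, 5.91 and 11.1 CPM in 80-1 and 4.97, 9.23 and 8.57 CPM in M6, with 1 count over the 3 libraries of EE501F2_516. The count ratio was 819 for 80-1 over the F2 line (95% counting interval 146 to 32406, adjusted p = 9.3e-05) and 762 for M6 (136 to 30149, adjusted p = 0.000136). The count was in plant 3, without which the F2 line was at 0. The other F2 lines ranged from 0 counts in EE501F2_500 to 0, 5.89 and 12.7 CPM in the plants of EE501F2_641. Plants of EE501F2_641 also differed from each other in other models, with a median SD of 0.438 in log2 CPM.

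At g10742 (chromosome 9, 1795227 to 1800470) the plants of EE501F2_516 had 0.0278, 0 and 0.128 CPM, or 5 counts in all. Those of 80-1 had 35.1, 27.6 and 26.1 CPM, and those of M6 had 32.5, 21.4 and 23.3 CPM. The parents overlapped each other, and the F2 line lay below both by -9.08 ± 0.80 (adjusted p = 3.56e-08) and -8.88 ± 0.80 (adjusted p = 5.3e-08) on the log2 scale. Without plant 3, which holds most of the 5 counts, the log2 fold changes were -10.62 and -10.43. The other F2 lines had means of 0.779 to 10.2 CPM, all below both parents, and EE501F2_516 was lower than their mean by a log2 fold change of -5.69 ± 0.76 (adjusted p = 7.72e-06).

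Complete silence in the F2 line was rare. Of 16110 models with a mean of at least 1 CPM in both parents, 5 had 0 counts in EE501F2_516, and the other F2 lines had 2 to 8 such models each. A mean under 0.1 CPM was found at 42 of the 16110 in EE501F2_516 and at 11 to 19 in each of the other F2 lines. A count of 0 over the 3 libraries of EE501F2_516 allows up to 0.0305 CPM (3 counts). This floor and all counting intervals cover counting error only.

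The 2 models of these 5 with the highest level in the lower parent were g27707 and g5052. The model g27707 (chromosome 9, 4071594 to 4072596) had 6.03, 4.6 and 5.65 CPM in 80-1 and 5.54, 9.82 and 8.83 CPM in M6. It was at least 178-fold lower than in 80-1 (adjusted p = 2.09e-08) and at least 265-fold lower than in M6 (adjusted p = 1.16e-08). All of the other 5 F2 lines had it, at means of 1.15 to 5.22 CPM. The model g5052 (chromosome 2, 35626917 to 35627962) had 7.58, 9.50 and 5.28 CPM in 80-1 and 6.85, 3.49 and 4.61 CPM in M6. It was at least 245-fold lower than in 80-1 (adjusted p = 3.93e-08) and at least 163-fold lower than in M6 (adjusted p = 1.02e-07), and the other F2 lines had means of 0.262 to 1.88 CPM.

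The other 3 silent models, named to complete the 5, were g33252 on chromosome 1, g22314 on chromosome 4 and g11059 on chromosome 5. The model g33252 had 5.14 CPM in 80-1 and 2.59 CPM in M6, and was also at 0 counts in 4 of the other 5 F2 lines, with 1 count in EE501F2_093. The model g22314 had 1.22 CPM in 80-1, 3.14 CPM in M6 and 0.630 to 1.60 CPM in the other F2 lines. The model g11059 had 6.44 CPM in 80-1, 1.01 CPM in M6 and 0 to 0.932 CPM in the other F2 lines.

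The opposite pattern was found at 1 model. Of 12983 models with 0 counts in all 6 parental libraries, 5029 lay on the 12 chromosomes and 1662 had a count in any F2 library. A mean of at least 1 CPM in EE501F2_516 was reached by 1 of them, and the other F2 lines had 0 to 5. That model, g16302 (chromosome 12, 32994263 to 32995558), had 1.30 CPM in EE501F2_516 from 129 counts, and 3.71, 2.71 and 1.83 CPM in EE501F2_099, EE501F2_500 and EE501F2_641.

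**Figure D3:**
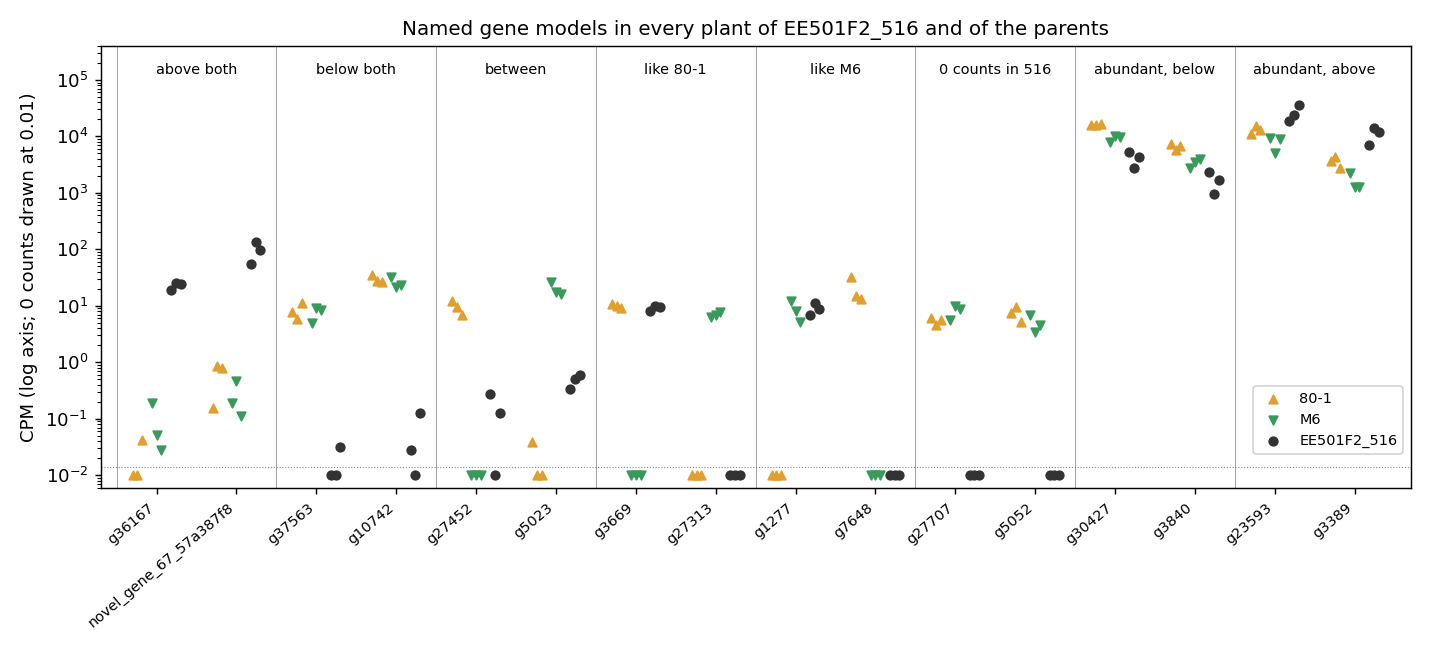
CPM in each of the 3 plants of 80-1, M6 and EE501F2_516 on a log axis for 16 of the models described in the text, grouped by class; plants with 0 counts are drawn at 0.01, under the dotted line. In the class above both and at the abundant models the plants of EE501F2_516 lie outside the parental plants, and at g3669, g27313, g1277 and g7648 they lie with those of one parent.

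Models at which the F2 line followed 1 parent included some that were read in that parent only. The model g3669 (chromosome 2, 7242861 to 7250207) had 8.27, 10 and 9.35 CPM in EE501F2_516 and 10.9, 9.76 and 9.05 CPM in 80-1, with 0 counts in M6. It was at least 325-fold higher than in M6 (adjusted p = 5.2e-09), and against 80-1 the log2 fold change was -0.11 ± 0.31 (adjusted p = 0.794). Among the other F2 lines, EE501F2_089 had 8.85 CPM and EE501F2_641 had 5.48 CPM. EE501F2_093, EE501F2_099 and EE501F2_500 had at most 0.0176 CPM. Conversely, g27313 (chromosome 10, 1457200 to 1460266) had 6.43, 6.87 and 7.67 CPM in M6 and 0 counts in both 80-1 and EE501F2_516. It was at least 229-fold lower in the F2 line than in M6 (edgeR adjusted p = 0.000144, but 0.128 in DESeq2). In the other F2 lines g27313 had at most 0.104 CPM, in EE501F2_093.

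Like M6, g1277 (chromosome 11, 31807083 to 31812429) had 6.9, 11 and 8.97 CPM in EE501F2_516 and 12, 8.05 and 5.18 CPM in M6, with 0 counts in 80-1. It was at least 220-fold higher than in 80-1 (adjusted p = 3.61e-06), and the log2 fold change against M6 was 0.09 ± 0.60 (adjusted p = 0.914). The other F2 lines had 0.486 to 5.48 CPM, and EE501F2_516 was above their mean by 2.47 ± 0.42 on the log2 scale (adjusted p = 0.000126). The model g7648 (chromosome 8, 1645353 to 1645886) had 31.9, 14.8 and 13.4 CPM in 80-1 and 0 counts in M6 and in EE501F2_516. It was at least 658-fold lower in the F2 line than in 80-1 (adjusted p = 2.01e-05), and 4 of the other 5 F2 lines also had 0 counts and EE501F2_093 had 3.

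Between the parents, g27452 (chromosome 4, 3309450 to 3309755) had 12.3, 9.63 and 6.95 CPM in 80-1, 0 counts in M6, and 0.278, 0 and 0.128 CPM in EE501F2_516. The F2 line was lower than 80-1 by a log2 fold change of -6.07 ± 0.76 (adjusted p = 5.84e-06) and at least 4.77-fold higher than M6 (adjusted p = 0.0132). Without plant 1, which holds most of the 14 counts, the call against M6 was lost (adjusted p = 0.0743) and the log2 fold change against 80-1 was -7.15. The model g5023 (chromosome 2, 35369088 to 35372091) had 26.5, 17.7 and 16.3 CPM in M6, 1 count in 80-1, and 0.334, 0.513 and 0.606 CPM in EE501F2_516. Its log2 fold change was -5.38 ± 0.58 against M6 (adjusted p = 4.22e-07), and its count ratio to 80-1 was 35.1 (95% counting interval 5.99 to 1414, adjusted p = 0.00271). The count of 80-1 was in plant 1, without which 80-1 was at 0. The other F2 lines ranged from 0.0793 CPM in EE501F2_089 to 12.5 CPM in EE501F2_099 at g5023. Both models lay much nearer the lower parent on the linear scale.

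Position was described with a parental state, the log2 CPM of the F2 line placed on a scale from M6 at 0 to 80-1 at 1. It was computed at 2449 models called between the parents and at least 4-fold apart. The median state was 0.471, with 0.512, 0.438 and 0.451 in the plants (SD 0.0393), and the quartiles were 0.0621 and 0.933. A state of at least 0.75 was found at 842 models, one of at most 0.25 at 930 and one between at 677. Among these, 242 models stood over 0.25 beyond the 80-1 level and 236 over 0.25 beyond the M6 level, outside the parental span.

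Along the chromosomes, 17 of 96 windows of 5 Mb with at least 5 such models had a median of at least 0.75 (near 80-1), 27 had at most 0.25 (near M6) and 52 were intermediate. Chromosome 2 had the highest median, 0.815, with 4 of 8 windows near 80-1 and none near M6. Chromosomes 5, 9 and 3 followed at 0.709, 0.672 and 0.630. Chromosome 4 had the lowest, 0.111, with 5 of 8 windows near M6 and none near 80-1, before chromosomes 12 and 11 at 0.299 and 0.304. The classes did not follow this order throughout. Of models called between the parents, 32.8% were like 80-1 and 27.4% like M6 on chromosome 2, and 29.5% and 28.7% on chromosome 9. On chromosomes 5 and 3 the class like M6 was the larger, with 29.1% and 32.6%, and 27.5% and 33.6%. The shares were 19.6% and 39.0% on chromosome 4, 20.5% and 40.5% on chromosome 12, and 21% and 43.2% on chromosome 11, which had the largest share like M6. Both measures use the same libraries and are not independent.

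**Figure D4:**
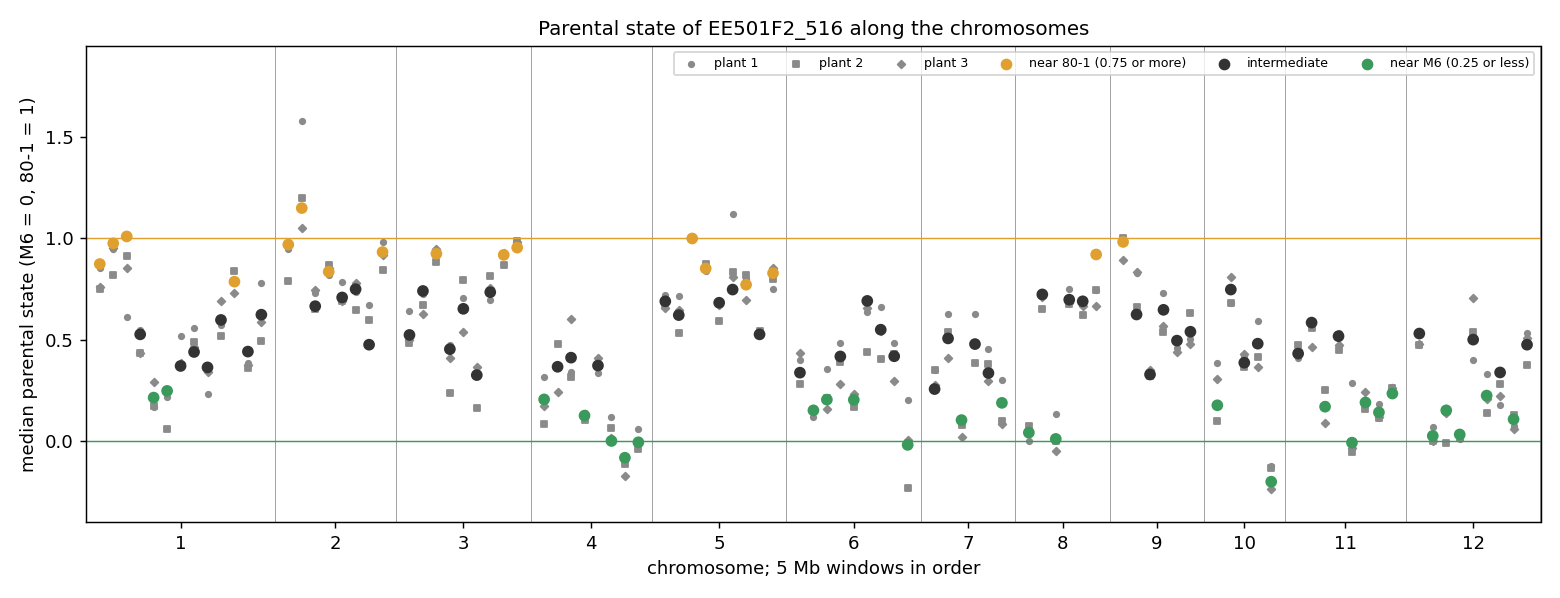
Median parental state of EE501F2_516 in 96 windows of 5 Mb in chromosome order, with M6 at 0 and 80-1 at 1. Large points are the line, coloured by call, and small grey points are its 3 plants. Chromosomes 4, 11 and 12 hold most of their large points at 0.25 or below, and chromosomes 2, 3, 5 and 9 have no large point there.

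Several stretches lay close to 1 parent on this log2 scale. On chromosome 4 from 25 to 40 Mb, 84 models in 3 windows had medians of -0.0817 to 0.000952. In the first of these windows the other F2 lines had 0.392 to 0.861, and over the 3 windows they reached from -0.0207 to 0.861. On chromosome 11 from 20 to 40 Mb, 106 models in 4 windows had medians of -0.00732 to 0.235. The other F2 lines reached from 0.103 to 0.724 there. Its windows at 25 to 30 and 35 to 40 Mb became intermediate when models read in 1 parent alone, described below, were left out. Near 80-1 were chromosome 1 from 0 to 15 Mb, at 0.874 to 1.01 over 74 models, and chromosome 3 from 40 to 50 Mb, at 0.919 and 0.955 over 54 models. Over the chromosome 1 stretch the other F2 lines reached from 0 to 0.944. EE501F2_089 had 0.850 at 0 to 5 Mb there, and at 5 to 10 Mb EE501F2_089 had 0.903 and EE501F2_500 had 0.944. Over the chromosome 3 stretch the other F2 lines reached from 0.378 to 0.821. At 0 to 5 Mb of chromosome 9 the median was 0.983 over 45 models, and the other F2 lines had 0.244 to 0.656. At 10 to 15 Mb of chromosome 5 it was 1.00, and they had 0.129 to 0.573. EE501F2_516 was the highest of the 6 F2 lines in 21 of the 96 windows and the lowest in 16. An even share among the 6 lines would equal the lower of these counts, and the difference was not tested.

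The plants of EE501F2_516 mostly shared their state. The median range between plants over the windows was 0.122, and in 2 windows it exceeded 0.4, at 10 to 15 Mb of chromosome 2 (0.527, over 9 models) and at 40 to 45 Mb of chromosome 6 (0.436, over 10 models). Plant 1 was the highest in 52 of 96 windows and plant 2 the lowest in 45.

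Models outside the parental range, by contrast, were spread over all 12 chromosomes. Those above both made up 12% of tested models on chromosome 11 to 15.9% on chromosome 5, and those below both 14.3% on chromosome 11 to 20.1% on chromosome 2. In windows near 80-1, 15.8% of models were above both and 19.0% below. In intermediate windows the shares were 14.2% and 16.4%, and in windows near M6 they were 13.4% and 15.7%. Among the 108 windows with at least 20 tested models, the share above both ran from 0% to 30% and the share below both from 1.2% to 28.4%, the highest at 40 to 45 Mb of chromosome 6 with 42 of 148 models. These shares are descriptions with no test.

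Models read in 1 parent alone gave a view of position that needs no scale between the parents. With at least 1 CPM in one parent and 0 counts in all libraries of the other, 96 models were read in 80-1 only and 60 in M6 only. Of the 96, EE501F2_516 had 0 counts at 15, under 0.25 of the 80-1 level at 32, 0.25 to 0.75 at 31, up to 1.5 at 12 and more at 6. Of the 60 read in M6 only, the corresponding numbers were 16, 10, 16, 10 and 8.

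These models were then placed by the state of their window, recomputed without them. Of those read in 80-1 only, 19 of 22 in windows near M6 (86.4%) had 0 counts or under 0.25 of the 80-1 level in EE501F2_516, as had 21 of 60 in intermediate windows (35.0%) and 5 of 11 in windows near 80-1 (45.5%). Of those read in M6 only, 8 of 10 in windows near 80-1 (80.0%) were at 0 or under 0.25 of the M6 level, as were 12 of 29 in intermediate windows (41.4%) and 4 of 18 in windows near M6 (22.2%). The median ratio to the parent that was read was 0.00638 in windows near M6 and 0.321 in windows near 80-1 for models of 80-1. For models of M6 it was 0.583 in windows near M6 and 0.0220 in windows near 80-1. In windows with no call lay 3 models of each parent, 2 of them at 0 or under 0.25 in each case. The recomputed state put 18 windows near 80-1, 53 intermediate and 24 near M6, of 95 with a call. Some windows changed call, among them 5 to 10 Mb of chromosome 2, near 80-1 before and intermediate after. Neighbouring models share a segment and are not independent, so no test was made.

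**Figure D5:**
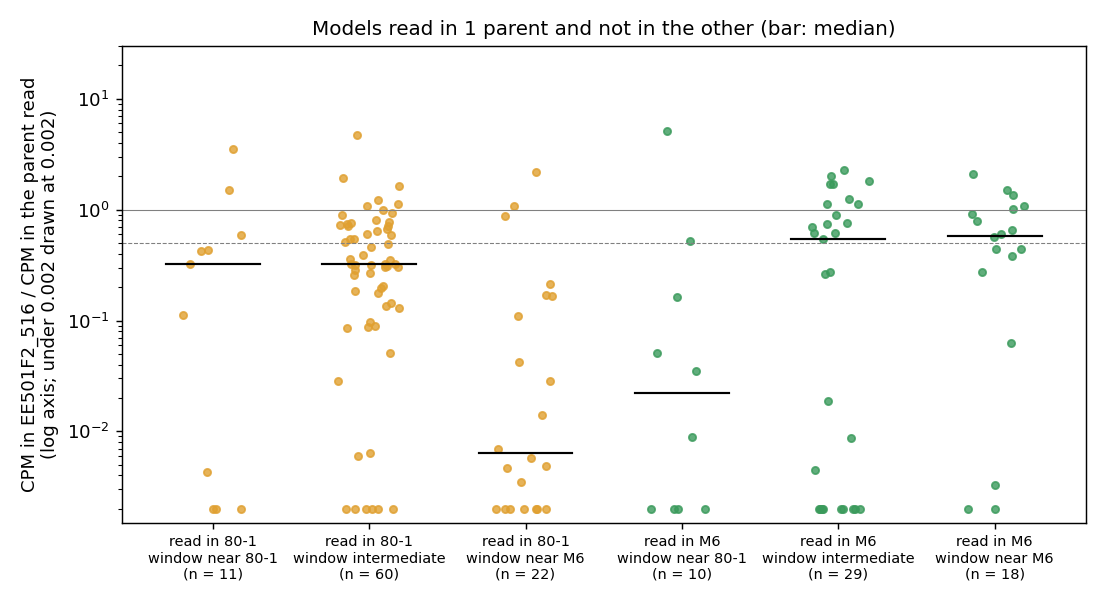
Ratio of CPM in EE501F2_516 to CPM in the parent that was read, on a log axis, for models with 0 counts in the other parent, by the state of their window; ratios under 0.002 are drawn at 0.002 and bars mark medians. Among these 6 groups, models of 80-1 in windows near M6 and models of M6 in windows near 80-1 have the lowest medians, 0.00638 and 0.0220; the 3 models of each parent in windows with no call are not drawn.

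Against the mid-parent value (the mean of both parents on the log2 scale), 11579 models (55.1%) were called in EE501F2_516, 6067 (28.9%) higher and 5512 (26.2%) lower. At least 2-fold from it were 6567 (31.2%).

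Because many models of any F2 line may differ from its parents, EE501F2_516 was also tested against the mean of the other 5 F2 lines. It differed at 10069 models (47.9%), 5062 (24.1%) higher and 5007 (23.8%) lower, and by at least 2-fold at 4741 (22.5%). Of the 3014 models above both parents, 2458 (81.6%) were also called above the other F2 lines and 3 below. Of the 3502 below both parents, 3004 (85.8%) were called below the other F2 lines and 6 above. The libraries of EE501F2_516 enter each of these comparisons, so the shares are counts and no independent support.

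The other F2 lines had fewer models outside the parental range by the same calls. EE501F2_089 had 4031 (19.2%), EE501F2_500 3029 (14.4%), EE501F2_641 2997 (14.3%), EE501F2_099 1622 (7.71%) and EE501F2_093 843 (4.01%), beside 6516 (31.0%) in EE501F2_516. Of the 2 other resistant lines, EE501F2_641 was nearly level with EE501F2_500, a susceptible line, and EE501F2_089 stood above it. The susceptible lines EE501F2_099 and EE501F2_093 had the fewest. The counts use the same parental libraries, and their differences between lines were not tested. Median parental state over the 2449 models was 0.471 in EE501F2_516, 0.562 in EE501F2_089 and 0.534 in EE501F2_641, and 0.422, 0.317 and 0.458 in EE501F2_093, EE501F2_099 and EE501F2_500.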

How the data were processed

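The values deposited by the authors are raw counts (whole numbers, not normalized), 1 column per library, beside a length in bases for each gene model, which is a unit other than counts. Per the submitters' processing notes, DESeq2, Subread, featureCounts 1.5.3, STAR 2.6.0 and Trimmomatic 0.35 were used. The sources used here do not give the genome build, the strand setting or the handling of multi-mapping reads, so reads of near-identical copies and of antisense neighbours could not be separated. No named model overlaps a neighbour in coordinates. Coordinates are those of the table, counted from 1. The 7954 models on unplaced sequence had 0 counts in every library.

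Tests were run with edgeR 4.0.16 in R 4.3.3 (filterByExpr, TMM, robust quasi-likelihood fit). All 24 libraries entered 1 fit with 1 mean per line (16 residual degrees of freedom), Benjamini-Hochberg adjustment ran over the 21028 models tested, and a call is an adjusted p under 0.05. Standard errors are the absolute log2 fold change divided by the square root of F. DESeq2 1.42.0, other scalings, filters and sample sets were alternatives. State used log2 CPM with a prior count of 2. Bounds against 0 counts use 3 counts over a line's libraries. On simulated data the median fitted fold changes lay close to those put in, and part of the 2-fold changes was not called. There the parents had equal means, and only 200 models were changed in EE501F2_516, as many up as down. The simulation therefore could not check the scaling or models at which the parents differ.

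Replicate libraries differed by more than counting noise (chi-square per degree of freedom 11.1 to 107), so each was kept. Named models are the most extreme of each class with at least 5 CPM in the highest line, plus the 2 with 0 counts in EE501F2_516 that had the highest level in the lower parent. For the classes above both and below both, models with 0 counts in all libraries of any of the 3 lines were left out of this ranking. The 4 abundant models, the other 3 with 0 counts and g16302 were named after their values were seen. No model with at least 5 CPM in EE501F2_516 had 0 counts in both parents. The comparison, the classes and the rule for named models were chosen with earlier results of these data known.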

Additional observations from a re-analysis of the deposited data

Results flagged for a closer look

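Of the 16 models named above, 12 differed in EE501F2_516 from the mean of the other 5 F2 lines by edgeR's quasi-likelihood test. Over all models tested 47.9% did, and the 16 were picked for extreme values in EE501F2_516, so the count is no result about them. The log2 fold change against that mean was 1.55 at g36167 (adjusted p = 7.72e-06), 3.95 at novel_gene_67_57a387f8, 5.96 at g3669 (adjusted p = 3.9e-10), 2.47 at g1277, 0.76 at g23593 (adjusted p = 0.0143) and 1.24 at g3389 (adjusted p = 7.86e-05). It was -5.69 at g10742, -2.92 at g5023 (adjusted p = 0.000167), -1.37 at g30427 (adjusted p = 0.000394) and -1.48 at g3840 (adjusted p = 0.000213). For g27707 and g5052, with 0 counts in EE501F2_516, the fitted values were -9.54 (adjusted p = 9.16e-08) and -7.74 (adjusted p = 6.93e-06), whose size depends on the fit's prior. The contrast weighs the other lines equally on the log2 scale: g36167 had a mean of 23.1 CPM in EE501F2_516 and 23.8 CPM over the other lines, of which EE501F2_500 had 4 counts, and 3 of those lines were above EE501F2_516. At g3669 the line EE501F2_500 had 0 counts, so the value of g3669 also depends on the prior. There EE501F2_089 had 8.85 CPM, close to the 9.21 CPM of EE501F2_516, and EE501F2_641 had 5.48 CPM. At g5023 the mean of EE501F2_089 was 0.0793 CPM, below that of EE501F2_516. At g23593 the mean of EE501F2_099 was 25489.0 CPM, close to the 26229.7 CPM of EE501F2_516. Lines at 0 left no usable value of this contrast for g37563, g27313 and g7648, and g27452 did not pass it (log2 fold change 0.30, adjusted p = 0.558).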

How the results depend on the processing

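All called directions of the 16 named models stayed the same under the alternatives run, and of 672 values for 32 fold changes 663 kept their side of the threshold. The 9 that lost the call belong to g23593 against 80-1, g27452, g3840 and g27313 against M6, as given above or by a stricter threshold (adjusted p under 0.01 or at least 2-fold). A fit on the 9 libraries alone, without EE501F2_641 or without EE501F2_093, median-ratio and upper-quartile scaling and DESeq2 kept every count within 1.5 times, except that DESeq2 on the 9 libraries put 907 models between the parents. The comparison with the other F2 lines cannot be made on the 9 libraries. With no filter, 11577 models were called against neither parent. At an adjusted p under 0.01, 1909 models were above both, 256 between and 9585 called against neither. Asking for at least 2-fold left 7204 calls against 80-1, 6262 against M6, 4662 between the parents, 6567 against the mid-parent value and 4741 against the other F2 lines, with 1532 above both, 2137 below, 310 between and 11541 called against neither. Scaling by total counts, added after the TMM factors were seen, gave 4711 above both and 2320 below, the opposite order. The cause of these shifts was not tested beyond the construction of each alternative. Leaving out 1 library kept the counts within 1.5 times: 10084 to 11584 against 80-1, 8718 to 10097 against M6, 2519 to 2821 above both and 2751 to 3439 below.

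Median state was 0.412 over models with a parental log2 fold change of at least 1. Windows of 10 Mb gave 11 near 80-1, 17 near M6 and 29 intermediate. Asking for 5 CPM in the parent that was read left 19 models of 80-1, 10 of them at 0 or under 0.25, and 7 of M6, 2 of them. Allowing 3 counts in the other parent gave 179 and 153 models, 84 and 65 of them at 0 or under 0.25.

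Replicate numbers did not pair the libraries: the deviations of same-numbered libraries correlated at -0.289 to 0.117. With the replicate number as a block, 11408 models were called against 80-1, 10175 against M6 and 7734 between the parents, with 2958 above both, 3503 below, 587 between, 3127 like 80-1, 4360 like M6 and 6493 called against neither. It gave 11518 against the mid-parent value and 9955 against the other F2 lines. Of models with a mean under 1 CPM over all 24 libraries, 40.2% were called against neither parent. The part of depth in this was not tested.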
